A study of Mus musculus with 9 samples.

Results

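Rab3il1, Nrbp2, Aifm3, Apof and Dmpk were the 5 largest well-measured falls in RNA at 12 h after mouse MyC-CaP prostate cancer cells had received NRG1, a ligand of the receptor HER3. These 5 genes were taken from a table of 15552 protein-coding genes, of which 11373 had enough counts to be tested, and all 5 were among the tested genes. They were chosen for their changes between the same time points that are described here, and Dmpk also for regaining part of its level by 24 h. Their own changes are therefore given as values with no p-value, and their calls by threshold serve only as a description. Tests are read only for genes that the choice did not use. The study asked how the response of prostate cancer cells to asporin compares with the response to NRG1, and the libraries described here are those of NRG1 alone.

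All 9 libraries came from MyC-CaP, a single established line from a mouse prostate tumor driven by MYC, starved in medium without serum and calcium. The groups had 0, 12 or 24 h of recombinant NRG1 at 15 ng/mL, with 3 libraries in each group. Libraries kept in the same medium without NRG1 for 12 or 24 h were not analysed here, so time in the medium and time with NRG1 cannot be told apart. The 3 libraries of a group are named as biological replicates, and the protocol describes triplicate wells, so the spread between them may be that between wells.

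The proteins that these genes encode do not form 1 pathway. Rab3il1 encodes an exchange factor that loads GTP onto RAB3 proteins, small GTPases that guide secretory vesicles to the cell membrane. Nrbp2 encodes a pseudokinase, a protein with a kinase fold that is thought to lack catalytic activity. Aifm3 encodes a mitochondrial relative of apoptosis-inducing factor, a mitochondrial flavoprotein whose release can take part in cell death. Apof encodes apolipoprotein F, a secreted protein of the liver that binds lipoproteins and inhibits lipid transfer between them. Dmpk encodes a serine/threonine kinase related to the ROCK and MRCK kinases of the cytoskeleton, and its repeat expansion causes myotonic dystrophy in humans.

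The genes lie on 5 different chromosomes. In the coordinates of the count table, which are GRCm38 and span the annotated gene, Rab3il1 (ENSMUSG00000024663.20) is on chromosome 19 from 10001669 to 10038380, Nrbp2 (ENSMUSG00000075590.4) on chromosome 15 from 76085518 to 76091627, and Aifm3 (ENSMUSG00000022763.18) on chromosome 16 from 17489611 to 17507485. Apof (ENSMUSG00000047631.4) is on chromosome 10 from 128267997 to 128270153, and Dmpk (ENSMUSG00000030409.16) on chromosome 7 from 19083849 to 19093821. Nrbp2 is on the minus strand and the other 4 genes are on the plus strand. Exons of other genes in the GENCODE vM21 annotation covered 3.39% of the exonic bases of Nrbp2, on the opposite strand, and none of those of the other 4 genes. Whether counting used the strand is not given in the sources used here, so reads from that stretch of Nrbp2 may belong to either gene.

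The genes were chosen for falling at the same time points, so their joint fall does not show that they share a regulator. Their promoters are shown as a description. The RefSeq sequences (GRCm38.p6) hold them for 3 of the 5, Dmpk, Aifm3 and Rab3il1. Each sequence runs 5′ to 3′ on the plus strand from 250 bases before the transcription start to 50 bases after it. Capitals mark matches, on either strand, to 11 short motifs. The MYC-type E-box was searched as CACGTG. The site of the FOXO forkhead factors was searched as GTAAACA. The site of AP-1, the Fos and Jun dimer, was searched as TGA and TCA parted by any base. The cyclic AMP response element CRE was searched as TGACGTC. The site of the ETS family of factors was searched with the letters CCGGAAG. For the zinc finger factors of the EGR family the search used GCGNGGGCG. For the cell cycle factors of the E2F family it used TTTNGCGC. The GC box, a common promoter element, was searched as GGGCGG and overlaps with the EGR letters. For the STAT factors of cytokine signalling TTCNNNGAA was used. The core promoter elements searched were the CCAAT box, by the letters of its name, and the TATA box, as TATAAA. For Rab3il1, 5 start sites are listed and the first of them is printed.
Dmpk, chr7:19083608-19083907: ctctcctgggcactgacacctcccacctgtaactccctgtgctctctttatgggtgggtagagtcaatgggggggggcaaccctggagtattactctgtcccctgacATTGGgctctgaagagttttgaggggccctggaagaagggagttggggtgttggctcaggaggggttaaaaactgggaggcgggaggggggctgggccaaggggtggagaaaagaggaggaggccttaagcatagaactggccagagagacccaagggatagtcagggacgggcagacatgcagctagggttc
Aifm3, chr16:17489427-17489726: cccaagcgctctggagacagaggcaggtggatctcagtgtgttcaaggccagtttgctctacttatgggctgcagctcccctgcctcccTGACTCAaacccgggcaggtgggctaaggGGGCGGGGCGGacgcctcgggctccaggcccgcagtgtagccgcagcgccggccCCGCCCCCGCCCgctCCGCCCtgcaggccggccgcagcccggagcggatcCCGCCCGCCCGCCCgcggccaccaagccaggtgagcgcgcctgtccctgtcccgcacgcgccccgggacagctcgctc
Rab3il1, chr19:10017944-10018243: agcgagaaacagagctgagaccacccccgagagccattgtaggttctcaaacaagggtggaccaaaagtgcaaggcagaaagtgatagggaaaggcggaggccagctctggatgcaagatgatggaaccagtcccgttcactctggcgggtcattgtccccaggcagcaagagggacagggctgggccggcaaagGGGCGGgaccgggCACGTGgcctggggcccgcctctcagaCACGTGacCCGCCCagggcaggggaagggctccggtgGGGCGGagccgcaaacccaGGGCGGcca

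No motif had a match in all 3 promoters. The E-box, the kind of sequence that MYC and its relatives bind, was found at 2 places in the printed Rab3il1 promoter, beginning 42 and 15 bases before the start, and in 7.15% of 32851 promoters of the same length overall. A start site a short way downstream takes in the same 2 matches, and the other 3 listed start sites of Rab3il1 hold none. In Aifm3, 8 overlapping or neighbouring GC boxes were found, a motif present in 35.7% of promoters, together with 1 AP-1 match beginning 161 bases before the start (7.81% of promoters) and 1 EGR match that overlaps GC boxes (5.55%). The printed Rab3il1 promoter held 4 GC boxes and Dmpk none. The Dmpk promoter held a single CCAAT box match, a motif present in 37.4% of promoters. Its ratio of observed to expected CpG was 0.0863, at percentile 11.5 of all promoters. In Aifm3 the ratio was 0.739, and in the printed Rab3il1 promoter 0.523. At the other listed start sites of Rab3il1 the ratio was 0.533, 0.411, 0.0473 and 0.0437, with 4, 1, 0 and 0 GC boxes. Counts per gene do not show which start site was used.

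Values are given in CPM, that is, counts scaled to a common library size after TMM, a scaling that lets most genes stay level between libraries. In bulk RNA, a lower level can come from fewer cells that hold the RNA or from less RNA in each cell, and these cannot be told apart. The libraries held between 28467089 and 39239760 counts, and the mitochondrial share of counts was 1.41% to 1.498% in the 0 h libraries, 1.12% to 1.18% in the 12 h libraries and 1.21% to 1.36% in the 24 h libraries. Replicate 3 at 12 h stood apart from the other 2 libraries of its group over all genes, with a chi-square per degree of freedom of 8.58 and 8.75 against them, where those 2 gave 3.80 with each other. Replicate 1 at 0 h gave 5.84 and 6.55 against its group, and the remaining pairs gave 3.42 to 4.12. Of the 8 prostate and epithelial markers in the table, 4 exceeded 1 CPM, among them Foxa1, at a mean of 286 CPM, Hoxb13 (92.2 CPM) and Krt8 (21.2 CPM). The epithelial markers Epcam and Cdh1 were close to 0, with at most 3 and 4 counts in any library. Krt18 was at a mean of 0.316 CPM, with at most 17 counts, and Pbsn had at most 2 counts. The summed level of immune markers was at most 1.11 CPM, of endothelial markers 0.389 CPM, of hepatocyte markers 2.02 CPM and of muscle markers 1.21 CPM, and of the fibroblast markers only Pdgfra exceeded 1 CPM. Among neuronal markers Rbfox3 reached a mean of 88.0 CPM, and the neuronal sum ranged from 91.5 to 102 CPM at 0 h, from 73.6 to 84.4 at 12 h and from 81.7 to 90.0 at 24 h. The muscle sum, from 0.958 to 1.21 CPM at 0 h, ranged from 0.140 to 0.457 at 12 h and from 0.295 to 0.713 at 24 h. Whether these shifts, the mitochondrial share included, take part in the changes below was not tested.

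Each of the 5 RNAs was lower in all 3 libraries at 12 h than in any library at 0 h. Values of that kind, lower with no overlap, were seen in 18.5% of all tested genes, and in 17.9% at 24 h, where all 5 were again below 0 h. By 24 h, 4 of the 5 had stayed at about their 12 h level, whereas Dmpk lay between its 0 h and 12 h values.

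Rab3il1, the RAB3 exchange factor, was at 17.8, 15.4 and 19.1 CPM in replicates 1 to 3 at 0 h, at 8.77, 8.97 and 8.12 at 12 h, and at 11.04, 8.31 and 10.5 at 24 h. It had the largest change of the 5 at 12 h, a 2.02-fold lower level, with a log2 fold change of -1.01 ± 0.11 (SE of the edgeR fit, n = 3 against 3). Its 24 h libraries spread more widely than its 12 h libraries: replicate 2 at 24 h fell inside the 12 h range, and the other 2 lay above it.

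The pseudokinase gene Nrbp2 was at 14.0, 16.6 and 15.2 CPM at 0 h, at 7.96, 8.30 and 7.15 at 12 h, and at 9.53, 8.70 and 8.15 at 24 h. Its level was 1.96-fold lower at 12 h (log2 fold change -0.97 ± 0.094) and 1.75-fold lower at 24 h (-0.80 ± 0.092). The 12 h and 24 h libraries overlapped through replicate 3 at 24 h.

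Aifm3, the relative of apoptosis-inducing factor, was at 18.1, 17.9 and 16.7 CPM at 0 h, at 10.7, 9.07 and 8.03 at 12 h, and at 11.004, 8.40 and 8.33 at 24 h. The 0 h libraries were tight, with an SD of 0.744 CPM around 17.6, and the later groups were looser, with SDs of 1.36 around 9.27 at 12 h and of 1.52 around 9.25 at 24 h. Its log2 fold change was -0.92 ± 0.11 at 12 h and -0.93 ± 0.11 at 24 h, so that of its 0 h level 52.8% and 52.6% were left.

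The apolipoprotein gene Apof was at 18.3, 13.7 and 16.1 CPM at 0 h, at 10.2, 8.62 and 8.61 at 12 h, and at 9.10, 8.14 and 9.68 at 24 h. Here the 0 h libraries were the widest of the 5 genes relative to their mean, with a coefficient of variation of 14.2%. Apof had the smallest change of the 5 at 12 h, -0.80 ± 0.11 on the log2 scale, and -0.83 ± 0.11 at 24 h.

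Dmpk, the most abundant of the 5, was at 59.8, 65.5 and 60.5 CPM at 0 h, at 36.8, 36.6 and 29.8 at 12 h, and at 51.8, 45.0 and 46.9 at 24 h. The 3 groups did not overlap in any pair, in the order 0 h, 24 h, 12 h from the highest to the lowest. Of the mean 0 h level 55.5% was left at 12 h and 77.3% at 24 h. Its log2 fold change was -0.85 ± 0.072 at 12 h and -0.37 ± 0.070 at 24 h, and the step from 12 to 24 h was 0.48 ± 0.073.

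**Figure D1:**
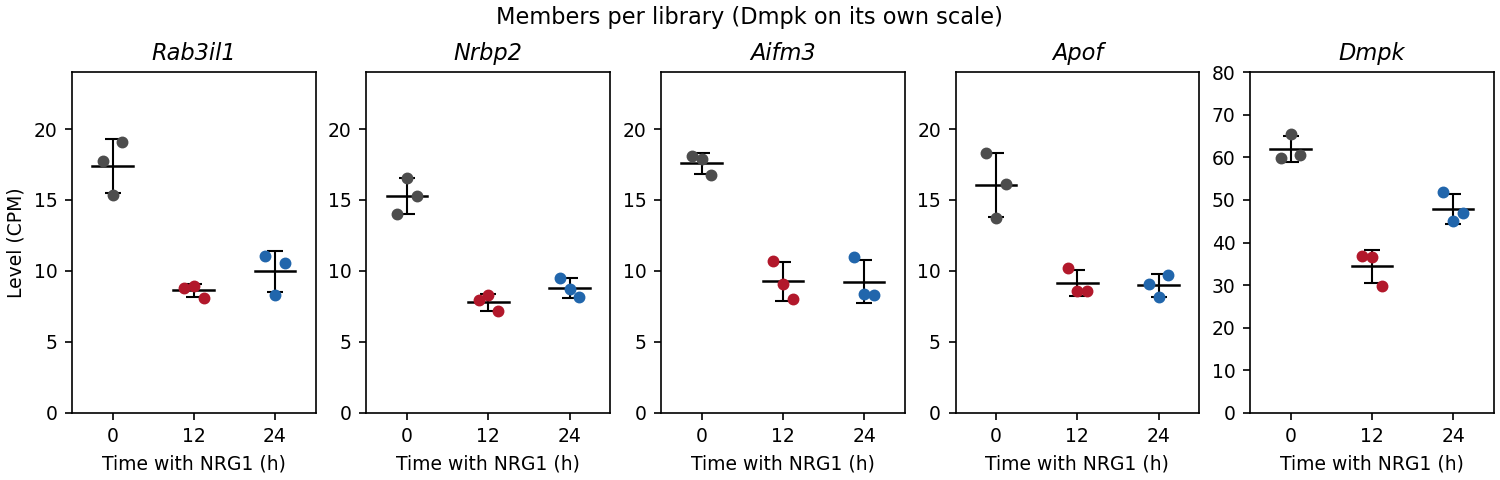
Level of each member in CPM (vertical axis, starting at 0) against time with NRG1 in hours (horizontal axis), 1 point per library, with the mean as a horizontal line and the SD as an error bar (n = 3). Rab3il1, Nrbp2, Aifm3 and Apof stayed between 7.15 and 11.04 CPM at 12 and 24 h, and Dmpk, on its own scale, came back to between 45.0 and 51.8 CPM at 24 h.

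In the order of the levels of each gene over time, 0 h stood highest for all 5. For Rab3il1, Nrbp2, Aifm3 and Apof the 12 h and 24 h values overlapped, with differences of 0.21 ± 0.11, 0.17 ± 0.099, -0.017 ± 0.12 and -0.028 ± 0.11 on the log2 scale, and their order was not resolved. Only for Dmpk among the 5 did the 24 h values clear the 12 h values, a pattern seen in 11.4% of all tested genes. Among the 109 genes called lower at 12 h, the pattern was seen in 38, Dmpk included. Expressed as a share of the 12 h fall that was regained by 24 h, the values were 20.6% for Rab3il1, 17.2% for Nrbp2, -1.89% for Aifm3, -3.54% for Apof and 56.0% for Dmpk. A negative share means that the 24 h level was lower than the 12 h level.

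By the thresholds of the study, an adjusted p of at most 0.05 and a change of at least 1.5-fold, all 5 genes were called lower at 12 h, as were 0.958% of all tested genes. At 24 h against 0 h, 4 were called lower, all but Dmpk, against 0.589% of tested genes. At 24 h against 12 h none of the 5 was called, against 0.29% of tested genes, since the rise of Dmpk was 1.39-fold. The genes were picked by these same comparisons, so nothing is read from the counts, and both comparisons against 0 h share the 0 h libraries.

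**Figure D2:**
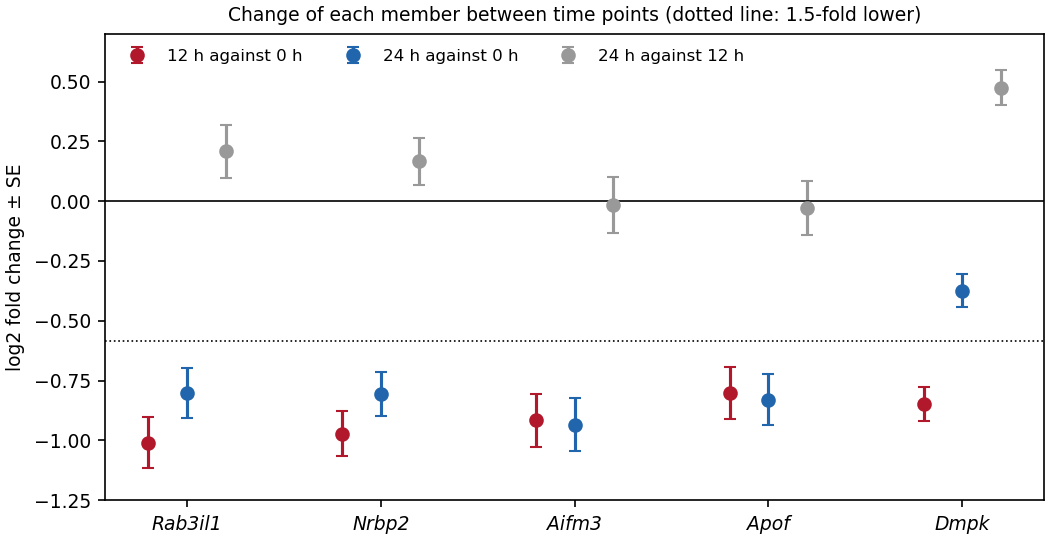
Log2 fold change with its SE (vertical axis) for each member (horizontal axis) at 12 h against 0 h, 24 h against 0 h and 24 h against 12 h, with a dotted line at a 1.5-fold lower level. At 24 h against 0 h Dmpk, at -0.37, was above that line and the other 4, between -0.93 and -0.80, were below it.

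Well measured was taken as a mean of at least 10 CPM over the 9 libraries, with groups that do not overlap. By this, the 5 genes held the first 5 ranks among the called falls at 12 h. Of them, 4 lay just above that minimum, Nrbp2 at 10.6, Apof at 11.4 and Rab3il1 and Aifm3 at 12.0 CPM. The means of these 4 at 12 and 24 h, from 7.80 to 9.97 CPM, lay under that minimum. Only their 0 h means, from 15.3 to 17.6 CPM, lay above it. The ranks therefore follow in part from that minimum and from the choice. At 24 h, among 14 such falls, Aifm3 ranked 1, Apof 3, Nrbp2 4 and Rab3il1 5, and Dmpk was not among them. Below that minimum, 57 called genes had a larger fall at 12 h than Apof. Of these, Entpd3 (-0.81) lay just under the minimum, at a mean of 9.98 CPM. Next in rank among the well-measured falls at 12 h, just outside the choice, were the growth factor receptor gene Fgfr3 with a log2 fold change of -0.75, the chemokine gene Cxcl17 (-0.73), Ankrd16 (-0.68), the adhesion gene Ceacam1 (-0.66) and Kcnip3 (-0.65). The 5 members spanned -1.01 to -0.80, so the step from Apof to Fgfr3 was smaller than the SE of Apof.

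Among all 109 genes called lower at 12 h, the median share regained by 24 h was 36.2%, with quartiles of 12.3% and 65.3%. A share over 50% was reached by 36 of the 109, and by 3 of the 20 with a mean of at least 10 CPM, which were Dmpk, Ankrd16 (52.3%) and Prag1 (50.1%). Prag1 is named to complete this count, after its value was known. No other gene of these 20 had a larger share than Dmpk, whereas 33 of the 109 did, all of them under 10 CPM. The 12 h libraries enter both the choice of these genes and the share, so the shares are a description.

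**Figure D3:**
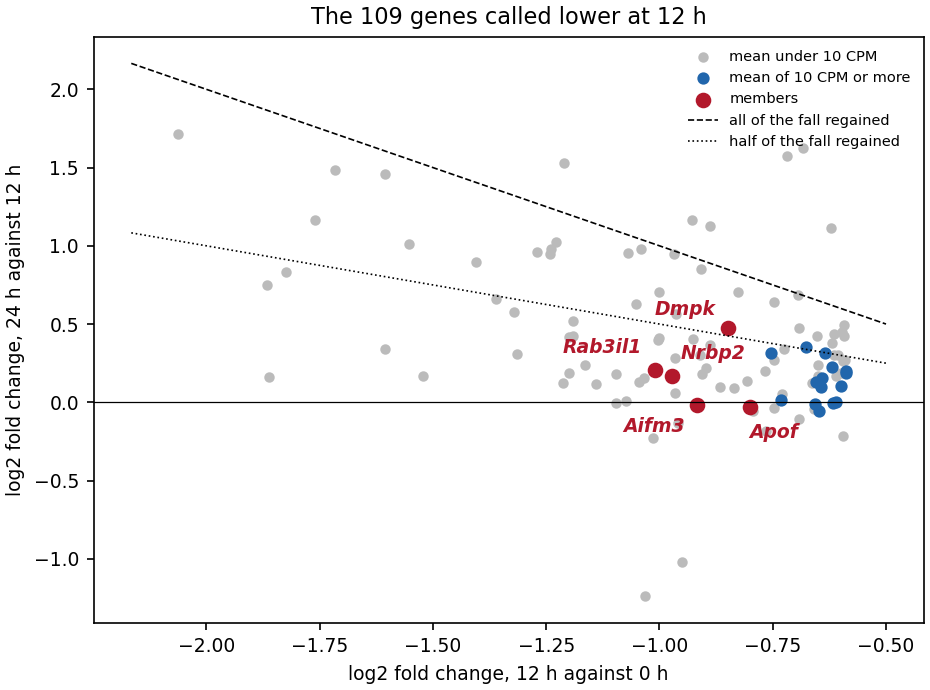
Log2 fold change at 24 h against 12 h (vertical axis) against that at 12 h against 0 h (horizontal axis) for the 109 genes called lower at 12 h, 1 point per gene, with lines where 100% or 50% of the fall was regained. Dmpk, at -0.85 and 0.48, lay above the lower line, while Aifm3 and Apof, at -0.017 and -0.028 on the vertical axis, lay near 0.

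The depth behind the values differed between the genes. Dmpk had 913 to 2491 counts per library, and the other 4 had 219 to 681, so that counting alone gives a coefficient of variation between 2.19% and 6.27% per library. The observed coefficients of variation of Dmpk were 5.03%, 11.6% and 7.29% at 0, 12 and 24 h, all above the 2.19%, 2.98% and 2.47% that counting gives. Those of Aifm3 were 4.23%, 14.7% and 16.5%, against 4.12%, 5.74% and 5.64% from counting, so its 0 h value lay close to the counting value and the later ones above it. The counting values cover counting error only. Per kilobase of exons in the vM21 annotation, mean levels were 11.1 CPM per kb for Dmpk and 1.71 for Rab3il1, the highest and the lowest of 4 genes, with 2.73 for Nrbp2 and 2.57 for Aifm3. Apof is not placed in this order, because its annotated start in the count table lies upstream of that in vM21.

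Replicate 3 at 12 h, the library that stood apart in its group, had the lowest value of the 12 h group for all 5 genes, and replicate 1 at 24 h the highest value of the 24 h group for all but Apof. Without replicate 3 at 12 h, the 12 h log2 fold changes were -0.96 for Rab3il1, -0.90 for Nrbp2, -0.81 for Aifm3, -0.75 for Apof and -0.75 for Dmpk. The share regained by Dmpk was then 50.6%. None of these values moved by more than the SD between replicates, which leaving out 1 of 3 libraries could hardly bring about.

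To describe which other genes had a like pattern, the log2 CPM of each gene over the 9 libraries were set to a mean of 0, and the root mean square distance between profiles was computed over the 8414 named genes with a mean of at least 10 CPM. Among the members, Nrbp2 and Aifm3 were closest, at 0.14 log2 units, and Apof and Dmpk were farthest apart, at 0.28. The members were chosen for their changes over these same libraries. Their nearness to each other, and the distance of Dmpk, therefore follow in part from the choice. The gene nearest to Apof was Steap4, a metal ion reductase, at 0.093, followed by Lbp, which encodes a lipopolysaccharide-binding protein, at 0.13, and by Ceacam1 at 0.14. Steap4 went from 100.02 ± 10.2 CPM at 0 h (SD, n = 3) to 63.7 ± 2.26 at 12 h and 61.2 ± 4.53 at 24 h. Lbp went from 88.7 ± 8.15 to 57.7 ± 3.32 and 57.7 ± 5.15 CPM, so that both had a smaller fall than Apof and were, like it, level from 12 to 24 h.

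For Rab3il1 the nearest genes were Apof (0.15), Nrbp2 (0.16) and Steap4 (0.17). For Nrbp2 they were Aifm3 (0.14), Rab3il1 (0.16) and the amino acid transporter gene Slc43a2 (0.16), which went from 128 ± 6.82 to 84.1 ± 3.36 and 84.4 ± 2.37 CPM. For Aifm3 they were Nrbp2 (0.14), Ceacam1 (0.15) and Apof (0.17). Dmpk, chosen also for its partial recovery, had none of the members among its 3 nearest genes. These were Fgfr3 (0.12), the sulfotransferase gene Sult1a1 (0.13) and Kank4 (0.16). Fgfr3, at 13.8 ± 0.656, 8.17 ± 0.354 and 10.2 ± 0.269 CPM, and Sult1a1, at 23.6 ± 0.832, 15.9 ± 1.66 and 20.3 ± 0.718 CPM, had higher 24 h than 12 h means as Dmpk did.

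None of 8 close relatives fixed for the members passed the test at 12 h. Rab3ip, which encodes the other RAB exchange factor of this kind, was at 34.3, 33.2 and 33.6 CPM on average at 0, 12 and 24 h, with a log2 fold change of -0.049 at 12 h (edgeR adjusted p = 0.593). Nrbp1, the paralog of Nrbp2, changed by -0.077 (edgeR adjusted p = 0.189), and Aifm1 and Aifm2, which encode apoptosis-inducing factor and a relative of it, changed by 0.0024 (edgeR adjusted p = 0.976) and 0.016 (edgeR adjusted p = 0.900). The MRCK kinase genes Cdc42bpa, Cdc42bpb and Cdc42bpg changed by 0.069, 0.012 and 0.094, and Rock1 by -0.017, with edgeR adjusted p-values from 0.132 in Cdc42bpg to 0.867 in Cdc42bpb. None of these 8 genes passed the test at 24 h either, where their log2 fold changes lay between -0.070 in Aifm1 and 0.16 in Aifm2. A p that misses the threshold does not show that a gene did not change. The SE of the 12 h change was at most 0.072 in these 8 genes. The members were chosen for large falls. A smaller change in these relatives therefore follows largely from the choice, and nothing is read from that contrast. Without replicate 3 at 12 h, the rise of Cdc42bpa at 24 h passed the threshold. The 8 do not hold every kinase related to Dmpk. Of those in its wider list below, Rock2 did not pass at 12 or 24 h. Cit did not pass at 12 h (0.19, edgeR adjusted p = 0.186) but was higher by 0.50 at 24 h (edgeR adjusted p = 0.00178).

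**Figure D4:**
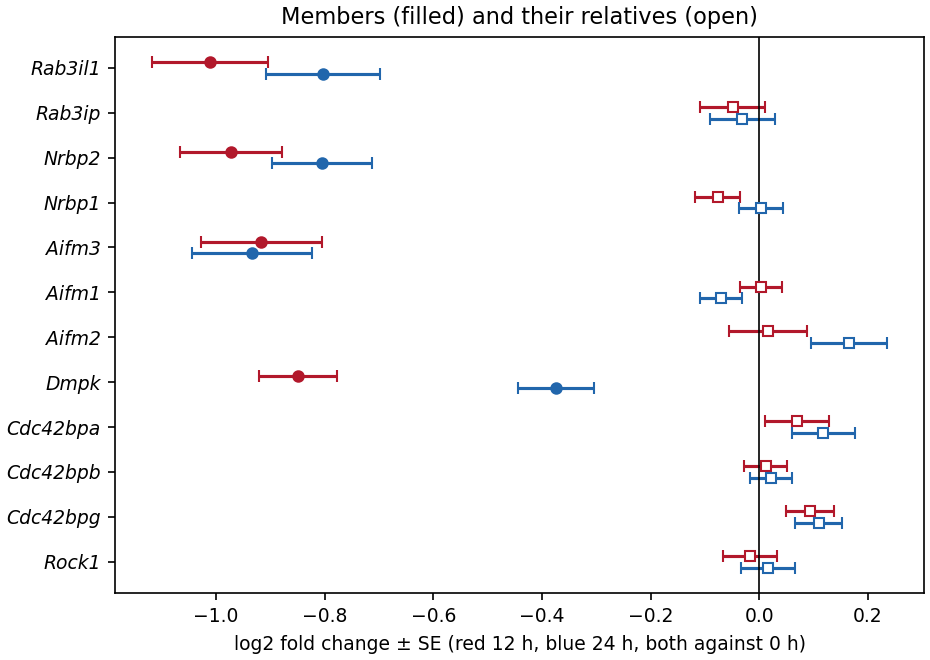
Log2 fold change against 0 h with its SE (horizontal axis) at 12 h in red and at 24 h in blue for 4 members (filled circles) and the 8 relatives fixed for them (open squares). The relatives lay between -0.077 and 0.16, and the members, which were chosen for their falls, at 12 h between -1.01 and -0.85.

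Wider lists of related genes were drawn up for each member, with the members left out, and 80 of 113 listed genes had enough counts to be tested. At 12 h against 0 h, 22 of the 80 passed an adjusted p of 0.05 (edgeR), 12 lower and 10 higher, or 27.5%, against 25.5% of all tested genes (11.9% lower and 13.6% higher). At 24 h against 0 h, 18 passed, 8 lower and 10 higher, or 22.5% against 17.4% (7.76% lower and 9.67% higher). Between 12 and 24 h, 6 passed, 2 lower and 4 higher, or 7.5% against 5.03% (3.06% lower and 1.97% higher). The median log2 fold change of the 80 genes was -0.024 at 12 h and 0.0028 at 24 h, against -0.0028 and -0.0065 over all genes. These shares were near those of all genes. The 24 h count was 11 when either the 0 h replicate 2 or the 24 h replicate 3 was left out. The count between 12 and 24 h ranged from 0, without replicate 2 at 24 h, to 11, without replicate 3 at 12 h, and was 1 when replicate 1 of the 12 h group, or replicate 1 or 3 of the 24 h group, was left out.

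Of 19 exocytosis genes around RAB3 and RAB27, 4 passed at 12 h, with Rab3b, Rab8b and Sytl3 lower and Rab11a higher. Rab3b, a RAB3 protein, fell from 51.4 ± 1.92 to 44.2 ± 1.35 CPM (SD, n = 3), or by -0.22 ± 0.046 in log2 terms (SE, adjusted p = 0.0022 in edgeR), and its 24 h level was 49.8 ± 0.948 CPM. Sytl3, which encodes a synaptotagmin-like effector of RAB27, fell by 0.59 in log2 terms at 12 h (adjusted p = 0.00923 in edgeR), and the fall at 24 h was -0.81 (adjusted p = 0.00158), from 6.60 ± 1.16 CPM at 0 h to 3.73 ± 0.757 at 24 h. Its 12 h fall no longer passed without replicate 3 at 0 h (-0.43, edgeR adjusted p = 0.0618; its alternatives ran from 9.49e-05 to 0.0618).

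Of 15 genes around the NRBP pseudokinases, 4 passed at 12 h, with Tsc22d3 and Wnk4 lower and Trib1 and Trib3 higher. Trib3, itself a pseudokinase and a gene known to respond to cell stress, rose from 40.0 ± 3.14 to 63.7 ± 10.7 CPM at 12 h, or by 0.67 ± 0.090 in log2 terms (SE, adjusted p = 4.41e-05 in edgeR), with 60.7 ± 3.62 CPM left at 24 h. Tsc22d3, which encodes a glucocorticoid-induced protein, fell by 0.14 at 12 h (edgeR adjusted p = 0.0059).

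Of 13 genes around the AIF family and mitochondrial cell death, 4 passed at 12 h, 1 lower and 3 higher. Among them, Ppia, which encodes cyclophilin A, rose by 0.18 (edgeR adjusted p = 0.00286), and Cycs, which encodes cytochrome c, also rose, while Cyb5r3 fell. At 24 h, 4 passed, and Cycs was again higher and Cyb5r3 lower.

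Of 13 apolipoprotein and lipoprotein genes, 5 passed at 12 h, 2 lower and 3 higher, with Clu and Abca1 lower and Apobr and Lipg among those higher. Of the 27 genes listed, 14 could not be tested. Abca1, the cholesterol exporter of the HDL pathway, fell by 0.43 (edgeR adjusted p = 0.013), and the endothelial lipase gene Lipg rose by 0.47 (edgeR adjusted p = 0.00599). The fall of Abca1 did not pass without the 0 h replicate 1 or the 12 h replicate 2. Apobr, an apolipoprotein B receptor gene at only 1.55 ± 0.318 CPM at 0 h, rose by 0.74 in log2 terms at 12 h, with an adjusted p of 0.0169 in edgeR, and its 24 h rise was 0.79 (adjusted p = 0.0148). Its rise did not pass at 12 or 24 h when replicate 2 or 3 of the 0 h group was left out. The 12 h rise also missed the threshold without the 12 h replicate 3 (0.61), and the 24 h rise without the 24 h replicate 2 (0.63).

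Of 20 genes around DMPK and myotonic dystrophy, 5 passed at 12 h, with Mbnl1, Mbnl3, Six5 and Mylk lower and Celf2 higher. Mbnl1, the splicing factor bound by the expanded repeat RNA of the disease, fell from 242 ± 5.74 to 190.0 ± 9.75 CPM at 12 h, or by -0.35 ± 0.040 in log2 terms (SE, adjusted p = 1.04e-05 in edgeR), with a 24 h level of 208 ± 2.80 CPM (-0.22, edgeR adjusted p = 0.000858). Celf2, a splicing factor of the CELF family, rose by 0.19 at 12 h (edgeR adjusted p = 0.00609). Mylk, the myosin light chain kinase gene, was lower at 12 h and rose by 0.26 from 12 to 24 h (edgeR adjusted p = 0.0126).

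Genes next to the members on the chromosome were examined to see whether a whole stretch moved. For each member the 2 nearest tested genes on each side were taken, 20 genes in all. Dmwd and Six5, next to Dmpk, are also in the list around DMPK, so Six5 counts as passing in both sets at 12 and 24 h. At 12 h, 9 of the 20 passed (edgeR), 3 lower and 6 higher, where 25.5% of all tested genes passed. At 24 h, 6 of the 20 passed, 2 lower and 4 higher, against 17.4% of tested genes, and between 12 and 24 h 1 passed, against 5.03%. The median log2 fold change was 0.027 at 12 h and 0.038 at 24 h. With all 9 libraries none was lower by 1.5-fold. Eppk1, next to Nrbp2, was at 12.8 ± 1.55 CPM at 0 h and 11.1 ± 4.65 at 12 h, a log2 difference of -0.21 that did not pass (edgeR adjusted p = 0.467). When the 12 h replicate 3 was left out, its 12 h fall passed, at -0.58 (edgeR adjusted p = 0.00186, with other alternatives up to 0.958), and so did its rise from 12 to 24 h, at 0.57 (edgeR adjusted p = 0.00857). Incenp, near Rab3il1, and Timeless, near Apof, were called higher at 12 h, as were 1.34% of all tested genes, by 0.63 and 0.59 (edgeR adjusted p = 1.44e-07 and 0.000155). Fads3, Fads2, Puf60 and Fbxo46 were the other 4 that rose at 12 h. Of the 16 alternatives, the rise of Puf60 missed the threshold in 5 and that of Fbxo46 in 2. The 24 h count was 3 without replicate 1 or without replicate 3 at 24 h, and the count between 12 and 24 h was 4 when the 12 h replicate 3 was left out and 3 when it was the 0 h replicate 1.

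The gene starting nearest to a member was Stat2, a transcription factor of the interferon response, 2.56 kb from the start of Apof. From 26.0 ± 0.608 CPM at 0 h it fell at 12 h to 19.7 ± 0.794, a log2 difference of -0.40 ± 0.056 (SE) with an adjusted p of 6.67e-05 in edgeR, and returned to 26.5 ± 0.277 at 24 h, while Apof stayed low. Beside Dmpk, Dmwd was at 59.1 ± 1.17, 55.04 ± 2.66 and 60.8 ± 1.61 CPM and did not pass at 12 h (-0.10, edgeR adjusted p = 0.112), though it passed without replicate 3 at 12 h. On the other side, the homeobox gene Six5 fell by 0.31 in log2 terms at 12 h (adjusted p = 0.0263 in edgeR), with a 24 h change of -0.29 (adjusted p = 0.0453). The fall of Six5 did not pass at 12 h without the 0 h replicate 1 (-0.21) or the 12 h replicate 3 (-0.24), and at 24 h it missed the threshold in 7 of 9 fits with a library left out. Beside Aifm3, Lztr1 fell by 0.14 at both times, which did not pass at 12 h without replicate 3 at 12 h or at 24 h in 5 of those 9 fits, and Crkl changed by -0.010 at 12 h.

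**Figure D5:**
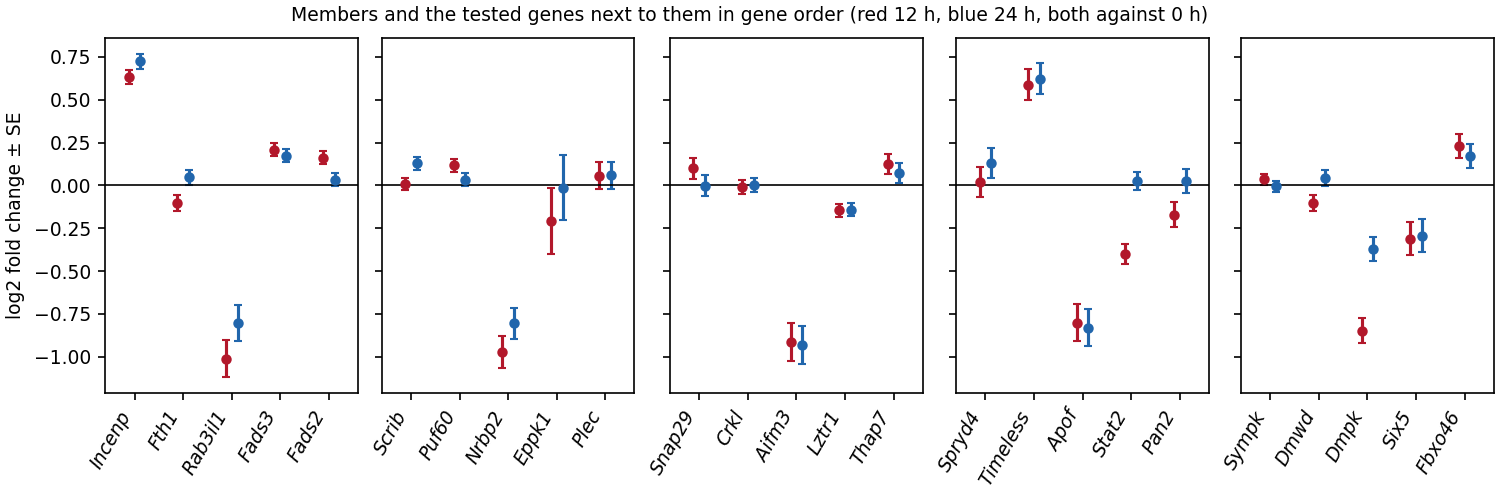
Log2 fold change against 0 h with its SE (vertical axis) at 12 h in red and at 24 h in blue for each member, in the middle of its panel, and the 2 tested genes on each side in gene order (horizontal axis, not to scale). In each panel the member lay lowest at 12 h, which follows largely from its choice for a large fall. With all 9 libraries the lowest neighbour was Stat2 at -0.40.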

How the data were processed

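RNA from 9 libraries of MyC-CaP cells was measured by mRNA sequencing with paired ends. Cutadapt (adaptor removal), STAR (alignment to GRCm38.p6 with GENCODE gene models) and featureCounts (counting) were used by the authors. What they deposited are whole-number counts for protein-coding genes, not normalized. Strand setting and treatment of multi-mapped reads are not given in the sources used here.

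Libraries were grouped by labelled time. After filterByExpr, the counts were scaled by TMM and fitted in edgeR 4.0.16 (R 4.3.3) with glmQLFit over all 9 libraries, and time points were compared with glmQLFTest. P-values were adjusted over 11373 tested genes by Benjamini-Hochberg. A gene passed at an adjusted p of at most 0.05, and was called if it also changed at least 1.5-fold. Library totals ranged from 28467089 to 39239760 counts. Each SE is the size of the log2 fold change over the root of F, and log2 CPM used a prior count of 2. P-values weigh the difference between time groups against the spread between these libraries, which may be technical in part.

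The members, gene lists, paralogs and motifs were chosen with earlier results of these data known. Genes named were the members, their paralogs and neighbours, list genes called in any comparison or with the 2 smallest adjusted p-values of their list at 12 h, the 3 nearest profiles per member, and the 5 falls next in rank. Others were named to complete a count, and a few items are not reported here. Overlaps and lengths came from GENCODE vM21, which matched 99.9% of the table's genes. Promoters came from RefSeq. Nrbp2 and Apof had none there. Alternatives were RLE factors, total counts, no filter, DESeq2 1.42.0, a replicate block, removal of a GC trend with and without that block, and each library left out. The procedures were tested on simulated data.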

Additional observations from a re-analysis of the deposited data

Results flagged for a closer look

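Single values were not tested for outliers, since each group had 3 libraries. Among the relatives, neighbours and list genes named by rule, 3 differed between 24 and 12 h. Mylk, named to complete a count, also did, as given above. Stat2, the neighbour of Apof, was higher at 24 h than at 12 h by 0.43 on the log2 scale (edgeR adjusted p = 0.000359). Rab3b was higher by 0.17 (edgeR adjusted p = 0.0411), and Tsc22d3 by 0.15 (edgeR adjusted p = 0.0185). Rab3b no longer passed in 8 of 9 fits with a library left out, and Tsc22d3 in 4 of them, whereas Stat2 passed in every alternative, with adjusted p-values from 1.22e-07 to 0.00345.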

How the results depend on the processing

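The 16 alternatives gave 320 values for the changes of the 5 members and the shares regained, and 0 of them moved by more than the SD between replicates. For the 9 that leave out a library this shows little. Leaving out 1 of 3 values moves a group mean by less than the SD of that group. Of the log2 fold changes, 5 changed sign, all for Aifm3 or Apof between 12 and 24 h, where the change was near 0, and the shares regained changed sign with them. The share regained ranged from 49.5% to 61.2% for Dmpk, from 13.6% to 31.8% for Rab3il1, from 11.6% to 23.4% for Nrbp2, from -16.3% to 10.2% for Aifm3 and from -10.5% to 6.75% for Apof. Over the 16 alternatives, the number of related genes passing ranged from 11 to 21 at 24 h against 0 h and from 0 to 11 at 24 h against 12 h. That of neighbouring genes ranged from 3 to 6 and from 1 to 4. Genes called between 12 and 24 h numbered 33, 53 with no filter and from 16 to 36 with a library left out. Neighbouring genes passing between 12 and 24 h numbered 1, 2 under the replicate block, 2 with the GC trend removed, 2 with both, 3 under total counts, and 4 with no filter or under DESeq2. The cause was not tested.

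Same-numbered libraries deviated from their group means with correlations from -0.074 to 0.13, and 4 of 9 libraries correlated best with their own number, so the numbers were not taken as pairs. Under the replicate block the change of Dmpk at 12 h was -0.85, and Rab3b no longer passed between 12 and 24 h (0.17, edgeR adjusted p = 0.051). For the 39 tested genes that are named by rule, 1872 values were computed, of which 47 lost the threshold, 27 gained it, and 76 changed sign without passing in either fit. With 3 libraries per group and 219 to 681 counts for 4 members, differences between 12 and 24 h of the size of their SE could not be resolved.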
